A study of Homo sapiens with 6 samples.

Results

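The transcripts described here are noncoding RNAs that RefSeq lists under accessions starting with NR_, as measured by microarray in Ewing sarcoma cells with and without the LOX propeptide. Of 50599 gene probes on the array, 3961 carry such an accession, and the 2499 with a signal that the scanner software flagged as clearly above its local background on 3 or more of the 6 arrays were kept. The members were therefore chosen by their measured signal. They cover 1772 accessions, of which those of 2267 probes could be tied to 1570 named genes, while 232 probes kept their accession number as a name. The probes of 1 further pseudogene were left out. Both sets of cells compared were made from A673, a cell line derived from an Ewing sarcoma, a tumour driven by the EWS/FLI1 fusion protein. Both sets carried the tetracycline repressor (TR). The control, A673/TR/empty, held an empty vector, and A673/TR/LOX-PP held the doxycycline-inducible cDNA of LOX-PP, the propeptide that is cut from lysyl oxidase when the secreted proenzyme matures. The treatment note given for every sample, controls included, names doxycycline for 72 hours, whereas the source names give it for the LOX-PP cells only. Whether the controls received it is therefore not settled. Each group held 3 independent experiments, so the comparison asks what the expression of LOX-PP did to the noncoding transcripts. As the arrays read the RNA of whole cultures, fewer cells of a kind and less RNA per cell cannot be told apart. Each group was a selected, stably infected line, so the effect of LOX-PP and any other difference between both lines cannot be told apart.

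Long noncoding RNAs are transcripts without a known protein product. Some are antisense to a protein-coding gene or start from the same promoter region in the opposite direction, and are named after that gene with the ending AS or DT. Others serve mainly as carriers: small nucleolar RNAs (snoRNAs), which guide the chemical modification of ribosomal RNA, and many microRNAs are cut from introns or exons of longer host transcripts. Well-known members act in the nucleus, such as MALAT1 and NEAT1 in nuclear speckles and paraspeckles, or HOTAIR, transcribed from the HOXC cluster. An array probe reads the transcript that holds its sequence, so it cannot separate a mature snoRNA from its unspliced host.

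The largest rise of a named gene was that of ZNF667-AS1, and other transcripts that neighbour zinc finger genes on chromosome 19 rose with it. The start regions of the 4 of them with the highest change are shown so that their CG dinucleotides can be read, written in capitals. Each covers 250 bases before the RefSeq start and the 50 bases after it, in GRCh38.p14 and on the + strand: chr19:56477624-56477923 for ZNF667-AS1, chr19:36797313-36797612 for ZNF790-AS1, chr19:37548699-37548998 for ZNF571-AS1 and chr19:56393426-56393725 for ZNF582-DT.
ZNF667-AS1: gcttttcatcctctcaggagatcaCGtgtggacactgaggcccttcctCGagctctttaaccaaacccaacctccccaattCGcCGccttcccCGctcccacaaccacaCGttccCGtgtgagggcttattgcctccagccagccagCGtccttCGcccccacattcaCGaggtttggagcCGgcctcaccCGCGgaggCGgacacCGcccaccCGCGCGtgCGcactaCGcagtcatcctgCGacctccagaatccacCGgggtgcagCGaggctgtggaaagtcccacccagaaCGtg
ZNF790-AS1: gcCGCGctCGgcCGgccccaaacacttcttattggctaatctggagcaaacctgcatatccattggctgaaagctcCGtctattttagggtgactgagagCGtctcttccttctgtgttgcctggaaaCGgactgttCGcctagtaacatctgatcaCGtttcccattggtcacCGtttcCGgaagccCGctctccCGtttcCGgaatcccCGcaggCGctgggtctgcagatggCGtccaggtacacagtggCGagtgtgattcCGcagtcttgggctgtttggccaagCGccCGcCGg
ZNF571-AS1: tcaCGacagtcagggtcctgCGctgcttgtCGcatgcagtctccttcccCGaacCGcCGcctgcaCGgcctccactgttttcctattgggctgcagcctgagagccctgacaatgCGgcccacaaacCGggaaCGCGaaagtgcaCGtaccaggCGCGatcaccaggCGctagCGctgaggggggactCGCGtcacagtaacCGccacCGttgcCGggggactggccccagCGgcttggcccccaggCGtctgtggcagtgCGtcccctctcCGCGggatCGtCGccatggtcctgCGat
ZNF582-DT: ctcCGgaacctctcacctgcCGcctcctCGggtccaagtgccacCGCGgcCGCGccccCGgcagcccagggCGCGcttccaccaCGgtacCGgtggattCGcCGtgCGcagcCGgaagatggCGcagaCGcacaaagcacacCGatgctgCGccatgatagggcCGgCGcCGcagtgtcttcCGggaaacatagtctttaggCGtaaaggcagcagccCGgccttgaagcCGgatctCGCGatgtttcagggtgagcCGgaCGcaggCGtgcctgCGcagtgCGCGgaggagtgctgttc
The ZNF667-AS1 region held 24 CG dinucleotides, and 33.7% of 27305 RefSeq start regions of this length held as many or more. The ZNF790-AS1 region held 22 (37.6%), that of ZNF571-AS1 29 (24.0%) and that of ZNF582-DT 35 (13.96%). Among antisense and divergent transcripts of zinc finger genes, the 7 genes with a probe past the test had a median of 24 CG dinucleotides and the 7 without had 28. The letters GGAAGGAA, repeats of the GGAA core to which EWS/FLI1 is known to bind, were searched on both strands. They occurred in 1 of the 40 start regions available for genes that rose (LINC01144), in 0 of 11 for genes that fell and in 3.58% of all start regions.

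For the host transcripts of microRNAs, the mature microRNAs they carry are shown with the seed (bases 2 to 8) in capitals, from RefSeq in GRCh38.p14. MIR9-3HG carries the pair at chr15:89368032-89368054 and chr15:89368071-89368092 (+ strand). MIR100HG carries miR-125b at chr11:122099809-122099830, let-7a at chr11:122146568-122146589 and miR-100 at chr11:122152275-122152296 (− strand).
hsa-miR-9-5p: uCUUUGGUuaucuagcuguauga
hsa-miR-9-3p: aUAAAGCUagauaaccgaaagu
hsa-miR-125b-5p: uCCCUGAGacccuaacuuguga
hsa-let-7a-5p: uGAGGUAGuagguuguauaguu
hsa-miR-100-5p: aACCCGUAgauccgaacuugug
No seed is shared among these 5 sequences, and the arrays measured the host transcripts, not the mature forms.

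All signals below are log2 values after subtracting the array's 75th percentile. A change is the LOX-PP mean minus the control mean on that scale, minus 0.13, the median of that difference over all 32647 tested probes. Errors are standard errors of the fit, and adjusted p-values are from limma with Benjamini-Hochberg adjustment over all tested probes, for the difference before the subtraction. The number of arrays limits the precision. The share of spots well above background ran from 56.9% to 74.8% per array, and between 49.9% and 72.3% of the 3961 noncoding probes were above background. The median signal of the 2499 members was −2.34, −2.43 and −2.19 in the controls and −1.68, −1.85 and −2.15 in the LOX-PP arrays. LOX-PP replicate 1 was the only array on slide 2, and its part in the results is given where it moves with them. Noncoding probes were dimmer than probes of mRNA accessions (NM_), with a median mean signal of −2.14 against 0.21, and 22.2% of them were above background on no array, against 10.8% of the NM probes. At the selection threshold, the 261 noncoding probes above background on 3 arrays had a median signal of −4.79 and the 261 on 2 arrays, which were not kept, had −5.37. Of the kept probes, 1783 were above background on all 6 arrays and 6 only on the 3 arrays of 1 group. Those 6 were tested only because of the group where they were high, so an adjusted p of theirs adds no support. The marker genes of Ewing sarcoma cells CD99, NR0B1, STEAP1, LIPI and NKX2-2 were bright on all arrays, with mean signals from 1.52 to 5.996, while the leukocyte gene PTPRC, EPCAM of epithelium and PECAM1 of endothelium lay at −2.86 or lower, as did LUM of fibroblasts (−4.43), which was above background on 3 arrays and fell by 2.42 (adjusted p = 0.0191). DCN, also a fibroblast gene, was at −0.26 and MYH3 of muscle at −2.34. The LOX probe read −0.09, 0.36 and 0.11 in the controls and −0.12, −0.68 and −1.29 with LOX-PP and did not pass the test (−0.95 ± 0.33, adjusted p = 0.22), and as the sources used here do not give the part of LOX it reads, it does not check the labels.

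In LOX-PP cells more noncoding probes were higher than lower. Of the 2499 members, 156 passed the test (6.24%), beside 5.66% of all tested probes, so their share was near the background. The split was uneven, as 137 rose (5.48%, beside 3.31% of all tested probes) and 19 fell (0.760%, beside 2.36%). The calls belonged to 100 named genes and 11 accessions without a gene name. Of the calls, 149 were at least 2-fold from the median of all probes, and in all 156 the arrays of both groups did not overlap. With 3 arrays per group, both traits largely follow from passing the test, so they add no support. Without adjustment, 600 members (24.0%) had a p below the threshold, against 21.3% of all tested probes. Among the 1783 members above background on all 6 arrays, 86 rose (4.82%) and 10 fell (0.561%). Of the NM probes above background on all 6 arrays, 2.58% rose and 3.05% fell. All tested NM probes gave a more even picture than the members: 3.41% rose and 3.37% fell, and when they were weighted to the signals of the noncoding probes, 4.86% rose and 3.73% fell. The difference from mRNA probes of like signal thus lay mainly in the few probes that fell. The median change of the members was 0.17, beside −0.09 for NM probes and 0.04 for NM probes at the same signals. The replicate spread was alike, with a median SD of 0.44 for both at the same signals. These shares are descriptions, since neither the members nor the signal groups are replicates. With quantile normalization the split was 104 rises and 37 falls, so 73.8% of calls were rises in place of 87.8%, and NM probes then gave 633 rises and 823 falls (1.48% of the members and 4.03% of the NM probes fell). The count ranged from 28 without control replicate 1 and 33 without control replicate 2 to 189 without LOX-PP replicate 1, while the median change stayed between 0.10 and 0.24.

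Some of the transcripts antisense to or divergent from zinc finger genes rose, a family that was picked after its values were seen. Zinc finger genes encode DNA-binding proteins, many of them repressors encoded in clusters on chromosome 19. Of 23 probes of such transcripts, 19 were members, from 14 genes. Of these, 9 probes of 7 genes rose (47.4% of the 19, beside 9.46% of NM probes at the same signals) and none fell. The median change was 1.48 (0.05 for NM probes at the same signals). The median was 0.51 with a common floor under all arrays and 0.92 with a normexp background (8 and 9 calls), and 6 of the 19 had changes below 0. Under quantile normalization 6 probes passed. With 1 array left out, between 4 (without control replicate 1 or 2) and 9 probes passed.

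ZNF667-AS1, which starts 529 bases from ZNF667 on the opposite strand, had the largest rise of any named gene. Its brighter probe read −3.30, −3.15 and −3.31 in the controls and 1.63, 2.07 and 1.51 in the LOX-PP arrays, a change of 4.86 ± 0.23 (adjusted p = 0.000265). The other read −5.31, −5.45 and −6.10 against −0.36, 0.22 and −0.20 (5.38 ± 0.30, adjusted p = 0.000378), but was above background in 1 control array only. All LOX-PP arrays lay above all control arrays by over 4 log2 units on both probes. The sense gene ZNF667 rose as well, by 2.05 ± 0.44 on its brightest probe (adjusted p = 0.0389) and by 5.09 ± 0.29 on another (adjusted p = 0.000434).

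ZNF790-AS1 read −3.07, −2.51 and −3.47 in the controls and 1.22, 0.90 and 0.41 with LOX-PP (3.74 ± 0.34, adjusted p = 0.00215). ZNF790 itself was well above background in all 3 LOX-PP arrays and in none of the controls, which gives an at least 20.7-fold higher signal (adjusted p = 0.00392). Such a bound sets the LOX-PP mean against the higher of the probe's own value and the dimmest signal that counted as above background in each control array. The ZNF790 probe entered the test only through the LOX-PP arrays, so its adjusted p adds no support.

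In the other zinc finger loci the antisense or divergent transcript rose while the brightest sense probe did not pass the test. ZNF582-DT, whose start lies 142 bases from that of ZNF582, read −1.10, −1.09 and −0.87 in the controls and 1.27, 1.56 and 0.96 with LOX-PP (2.16 ± 0.24, adjusted p = 0.00395), and a second probe rose by 1.89 ± 0.34. The ZNF582 probe gave a change of −0.09 ± 0.44 (adjusted p = 0.975). ZNF571-AS1 rose by 2.89 ± 0.41 (adjusted p = 0.0103), from −5.17, −5.57 and −4.45 to −1.77, −1.64 and −2.74, beside 0.60 for ZNF571 (adjusted p = 0.175). ZNF606-AS1 rose by 2.07, ZNF205-AS1 by 1.501 and ZNF566-AS1 by 1.48, beside 0.27, −0.39 and −0.06 for their sense genes. Whether the transcript and its sense gene differed in change was not tested. The remaining 10 member probes of the family, including ZNF143-AS1 (−1.42, adjusted p = 0.0723) and ZNF407-AS1 on chromosome 18 (−0.74 to −0.41 over 3 probes), did not pass.

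Over all loci, 338 member genes were named as antisense to, or divergent from, another gene, and 302 of these had a tested NM probe of the sense gene. In 19 pairs the noncoding transcript passed the test. The brightest sense probe passed in 5 of those pairs (CACNA1G, CEBPA, TNFRSF10A, ZNF667 and ZNF790), each in the same direction, and lay on the same side of 0 in 16. For comparison, 23 of the 283 sense genes beside an uncalled transcript passed on their brightest probe. Beside called transcripts that rose, a dimmer probe of ZEB1 (1.24, adjusted p = 0.0331) and of KDM7A (1.19, adjusted p = 0.0426) passed as well, outside this count. Across the 302 pairs, which are not independent and share the same arrays, the changes had a Pearson correlation of 0.46 and a Spearman correlation of 0.39.

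**Figure D1:**
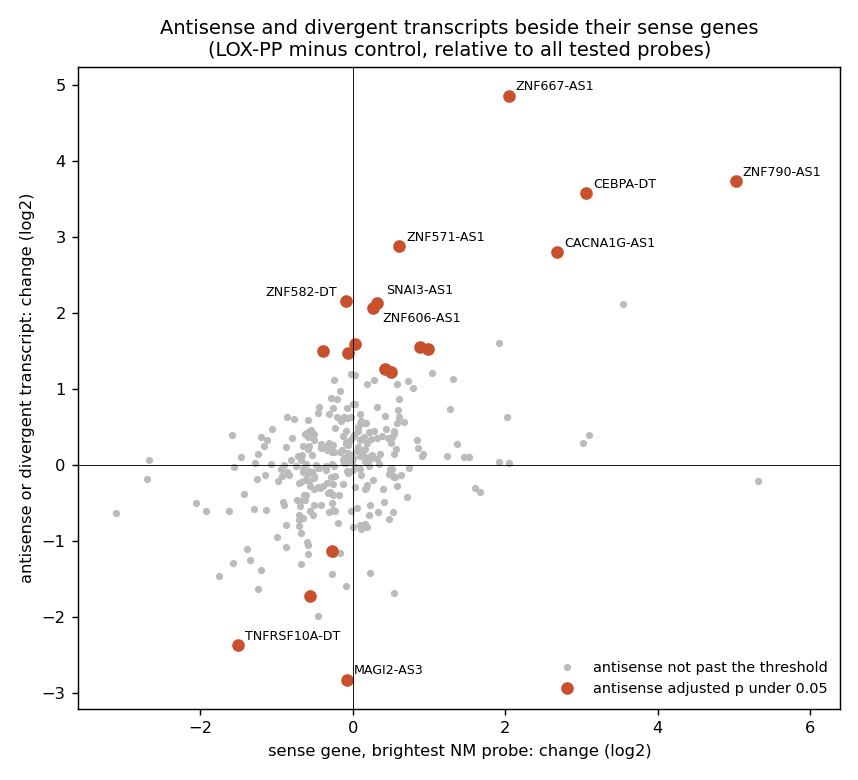
Change of each antisense or divergent transcript (vertical axis, log2, LOX-PP minus control, relative to all tested probes) against that of its sense gene's brightest NM probe (horizontal axis, same unit), 1 point per gene for 302 genes. Orange points are the 19 transcripts past an adjusted p of 0.05; ZNF667-AS1, ZNF790-AS1, CEBPA-DT and CACNA1G-AS1 sit at upper right with their sense genes, while ZNF582-DT and MAGI2-AS3 lie near 0 on the horizontal axis.

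CEBPA-DT, divergent from the gene of the transcription factor C/EBP alpha with starts 287 bases apart, read −5.23, −5.62 and −3.63 in the controls and −1.58, −1.10 and −0.68 with LOX-PP (3.58 ± 0.54, adjusted p = 0.0132). CEBPA rose by 3.06 ± 0.34 (adjusted p = 0.00444), while a second CEBPA-DT probe gave a change of 1.32 (adjusted p = 0.194). CACNA1G-AS1, antisense to a T-type calcium channel gene, rose by 2.80 ± 0.35 (adjusted p = 0.00648) beside 2.68 ± 0.30 for CACNA1G (adjusted p = 0.00446). The falls were fewer. MAGI2-AS3, antisense to a scaffold protein gene, read −3.97, −3.90 and −2.81 in the controls and had no LOX-PP array well above background, an at least 5.48-fold lower signal (adjusted p = 0.0426), while the brightest MAGI2 probe gave a change of −0.07. The MAGI2-AS3 probe entered the test only through the control arrays, so its adjusted p adds no support. TNFRSF10A-DT fell by 2.36 (adjusted p = 0.0472) and TNFRSF10A, a receptor of the death ligand TRAIL, by 1.51 (adjusted p = 0.0313). CNN3-DT fell by 1.71 (adjusted p = 0.0465), beside −0.56 for CNN3, a calponin gene. The calls of MAGI2-AS3, TNFRSF10A-DT and CNN3-DT were lost without any one of the control arrays, LOX-PP replicate 1 or LOX-PP replicate 3 (adjusted p up to 0.207, 0.167 and 0.169 over all settings), and that of CEBPA-DT without control replicate 1, control replicate 2 or LOX-PP replicate 3 (up to 0.0926). In the full lists, of 361 antisense probes 13 passed (12 rose and MAGI2-AS3 fell, median change 0.05), and of 134 divergent, overlapping and intronic transcripts 8 passed (5 rose and 3 fell, median 0.05), beside 0.08 and 0.07 for NM probes of the same signals. With quantile normalization both medians were −0.08. The shares called were 3.60% and 5.97%, beside 9.27% and 9.54% of NM probes of the same signals. Leaving out 1 array gave 4 (without control replicate 1) to 18 (without LOX-PP replicate 1) antisense calls and 1 (without control replicate 1 or 2 or LOX-PP replicate 3) to 9 (without LOX-PP replicate 1) in the other list.

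Long intergenic transcripts named LINC included LINC01192, with rises next to those of ZNF667-AS1, and LINC00944, with the largest fall. Of 849 such probes 393 were members, from 245 genes; 30 rose, 8 fell and the median change was 0.13 (0.11 for NM probes at the same signals). The 9.67% called lay near the 9.16% of NM probes at the same signals. The count of LINC calls was 10 without control replicate 1, 11 without control replicate 2 and 42 without LOX-PP replicate 1. LINC01192 rose on 3 of 3 probes. One read −4.12, −4.26 and −4.49 in the controls against −0.10, −0.28 and −0.32 with LOX-PP (3.93 ± 0.21, adjusted p = 0.000378), and another rose by 4.25 ± 0.30 (adjusted p = 0.000922). The last was above background in none of the controls, so its signal was at least 20.2-fold higher with LOX-PP (adjusted p = 0.00176). It entered the test only through the LOX-PP arrays, so that p adds no support. With a normexp background, which raises dim values, its change was 2.51. All 3 calls held without any single array. LINC02891 rose by 3.28 ± 0.28 (adjusted p = 0.00176) and LINC00965 by 3.25 ± 0.31 on 1 of 2 probes (adjusted p = 0.00259).

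LINC00944 read −1.60, −1.55 and −0.78 in the controls and −5.02, −5.95 and −5.40 with LOX-PP (−4.27 ± 0.34, adjusted p = 0.00182), where 1 of the 3 LOX-PP arrays was above background. A second probe fell by 3.12 ± 0.45 (adjusted p = 0.0143), and the last, on which LOX-PP replicate 1 stood apart at −2.32 beside −5.84 and −5.56, gave a change of −3.30 ± 0.90 (adjusted p = 0.0974). LINC00908 fell on 1 of 4 probes, by 2.70 ± 0.30 (adjusted p = 0.00635), and the other 3 gave changes of −0.47 to 0.67. The probe that fell was above background in 1 LOX-PP array, and with a normexp background its change was −1.25 (adjusted p = 0.0895). LINC00641 fell by 2.13 ± 0.33 (adjusted p = 0.0192), from −0.51, −0.84 and −1.30 to −2.44, −3.36 and −2.86. LINC01096 fell by 1.55 (adjusted p = 0.0221). Without control replicate 1 or 2 the calls of LINC00641, LINC01096 and the second LINC00944 probe were lost (adjusted p up to 0.108, 0.106 and 0.0919 over all settings), those of the first pair also without LOX-PP replicate 2 or 3. GRASLND, a transcript known for its part in cartilage matrix formation, fell from −0.96, −1.15 and −0.89 to −4.42, −3.41 and −4.68 (−3.30 ± 0.35, adjusted p = 0.00502).

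**Figure D2:**
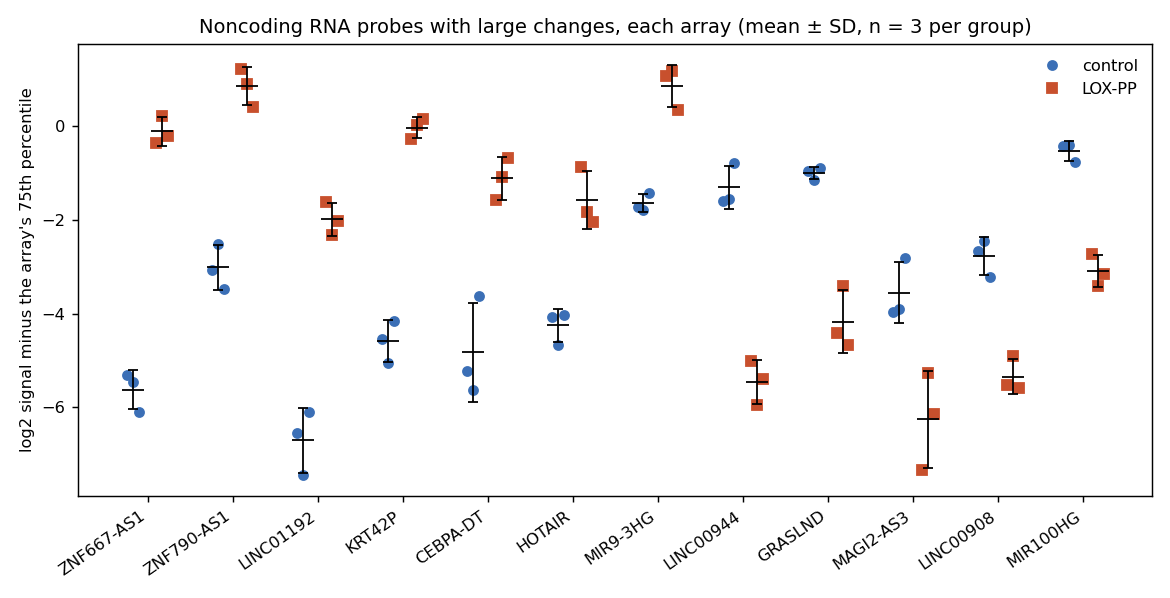
Log2 signal minus the array's 75th percentile in each of the 6 arrays for the called probe with the largest change of 12 noncoding genes, controls as blue circles and LOX-PP as orange squares, with the mean and SD (n = 3 per group). The first 7 genes rose, with LINC01192, shown by its probe that was not above background in any control, reading −6.55, −7.45 and −6.10 in the controls against −1.62, −2.32 and −2.04, and the last 5 fell; in none do both groups overlap.

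LINC01278 and LINC00467 were picked after their values were seen, since every member probe of each rose. The 7 LINC01278 probes rose by 1.10 to 2.19, the largest from −3.01, −3.12 and −2.72 to −0.44, −0.59 and −0.86 (2.19 ± 0.23, adjusted p = 0.00352). The 4 LINC00467 probes rose by 1.69 to 2.10, the brightest from −1.46, −1.25 and −0.67 to 0.84, 0.72 and 1.07 (1.88 ± 0.27, adjusted p = 0.0104). Without control replicate 1 or 2, however, no LINC00467 probe and 3 or 4 of those of LINC01278 passed. In all, 359 genes had more than 1 member probe: 44 had a call, 10 had every probe called, and none had calls in both directions.

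Host transcripts of microRNAs moved in single cases. Of 40 probes 27 were members, from 20 genes. Of the members 2 rose, 1 fell and the median change was −0.03 (0.04 for NM probes at the same signals). The 11.1% called lay near the 9.24% of NM probes at the same signals. Both probes of MIR9-3HG, the host of miR-9 shown above, rose: one read −1.74, −1.78 and −1.42 in the controls and 1.07, 1.16 and 0.34 with LOX-PP (2.38 ± 0.29, adjusted p = 0.00562), and the other gave a change of 2.36 ± 0.33 (adjusted p = 0.00907), which no longer passed without control replicate 1 or 2 (adjusted p up to 0.0675 over all settings). The host of a second copy of miR-9, MIR9-2HG, gave a change of −1.40 ± 0.39 (adjusted p = 0.119). MIR100HG, which carries miR-125b, let-7a and miR-100, read −0.42, −0.40 and −0.77 against −2.73, −3.40 and −3.16 (−2.69 ± 0.26, adjusted p = 0.00359). This probe passed without any single array, whereas a dim second MIR100HG probe gave a change of −0.45 (adjusted p = 0.608). MIR17HG, host of the miR-17 cluster, gave a change of −0.85 (adjusted p = 0.167).

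Among well studied long noncoding RNAs, 89 of 110 probes were members, from 22 genes. Of the members 14 rose and 1 fell, with a median change of 0.30 (−0.04 for NM probes at the same signals). The share called was 16.9%, beside 8.16% of NM probes at the same signals, but the 15 calls came from only 5 genes. The rises belonged to HOTAIR, MIAT, MALAT1 and LINC-PINT, and the count was 1 without control replicate 1 or 2 and 3 without LOX-PP replicate 2. HOTAIR, known to bind chromatin-modifying complexes, rose on 6 of 7 probes by 1.60 to 2.54. Its brightest probe read −2.54, −2.73 and −2.56 against −0.61, −0.40 and −0.87 (1.86 ± 0.22, adjusted p = 0.00502), and this call held in every setting tried. The seventh probe gave a change of −0.28 (adjusted p = 0.896). Without control replicate 1 or 2, 1 HOTAIR probe passed, and without LOX-PP replicate 2, 3 passed. HOXC12, next to HOTAIR, gave a change of 1.47 (adjusted p = 0.0792), and HOXC11 on its other side was above background on 1 array and was not tested. Of the other HOX cluster transcripts, HOXD-AS2 gave a change of −0.99 (adjusted p = 0.0941) and HOXB-AS3 one of 0.44 (adjusted p = 0.4), so HOTAIR alone gave the 6 calls among the 9 members of that list.

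MIAT split by probe. On 5 of its 10 probes it rose by 2.03 to 2.48, the brightest from −1.93, −2.35 and −2.04 to 1.40, 0.37 and −0.56 (2.39 ± 0.48, adjusted p = 0.0314). The other 5 gave changes of 0.10 to 0.54. LOX-PP replicate 1 was the highest array on all 5 called probes, and 4 passed without it, but none passed without any one of the controls 1 to 3 or without LOX-PP replicate 2. MALAT1 rose on 2 of 8 probes, by 1.09 and 1.56 (adjusted p = 0.0348 and 0.041), the other 6 at 0.62 to 1.38. Without LOX-PP replicate 1, which was the highest array on most MALAT1 probes, 5 passed, and without any other single array none did. LINC-PINT, a p53-induced transcript, rose on 1 of 12 probes (0.96, the others 0.46 to 1.31); that call was lost under quantile normalization and without any one control array.

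Several abundant members of the list did not pass. The 4 NEAT1 probes gave changes of −0.05 to 0.87, the 10 of PVT1, next to MYC, of −0.63 to 0.01, the 4 of CRNDE of −0.78 to −0.56 and the 4 of NORAD of 0.00 to 0.67. limma gave 0 calls in each, the methods' t-test also gave 0, and an unadjusted p below the threshold occurred in 0, 0, 2 and 1 of them. The fall was that of DLEU1, a transcript of the leukaemia-deleted region of chromosome 13, from 2.63, 2.67 and 2.52 to 1.51, 1.88 and 1.47 (−1.11 ± 0.22, adjusted p = 0.0484), and this call was lost under quantile normalization (adjusted p = 0.0557) and without any single array (0.0627 to 0.233). NM probes of chromosome 13 had a median change of −0.83, and the part of that shift in the DLEU1 value was not tested. CHASERR, known to restrain the neighbouring chromatin remodeller gene CHD2, is on none of the lists and was chosen after its values were seen: it fell by 1.31 ± 0.24 (adjusted p = 0.0389), a call that held without LOX-PP replicate 1 and was lost without any other single array (adjusted p up to 0.177). In the list of transcripts linked to p53, 37 probes were members and 2 rose, MEG3 and LINC-PINT, with a median of 0.46 (−0.09 for NM probes at the same signals). The share called, 5.41%, lay near that of all tested probes, the median was 0.21 without LOX-PP replicate 1, and no probe passed without control replicate 1, control replicate 2 or LOX-PP replicate 2.

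EWSAT1, a transcript known to be induced by EWS/FLI1, rose on 5 of 7 probes by 1.48 to 1.66. The called probes were dim: one read −3.73, −4.14 and −3.68 in the controls against −2.43, −2.03 and −1.73 (1.66 ± 0.27, adjusted p = 0.0145). The brightest probe read 0.75, 0.23 and 0.57 against 0.76, 0.68 and 0.43, with both groups overlapping (−0.02 ± 0.23, adjusted p = 0.842). Without control replicate 2 no EWSAT1 probe passed, without control replicate 1 only 1 did, and with a normexp background 2 did. FEZF1-AS1 (−0.36, adjusted p = 0.66) and SOX2-OT (−0.45, adjusted p = 0.552), the other members of the list of Ewing sarcoma transcripts, did not pass.

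**Figure D3:**
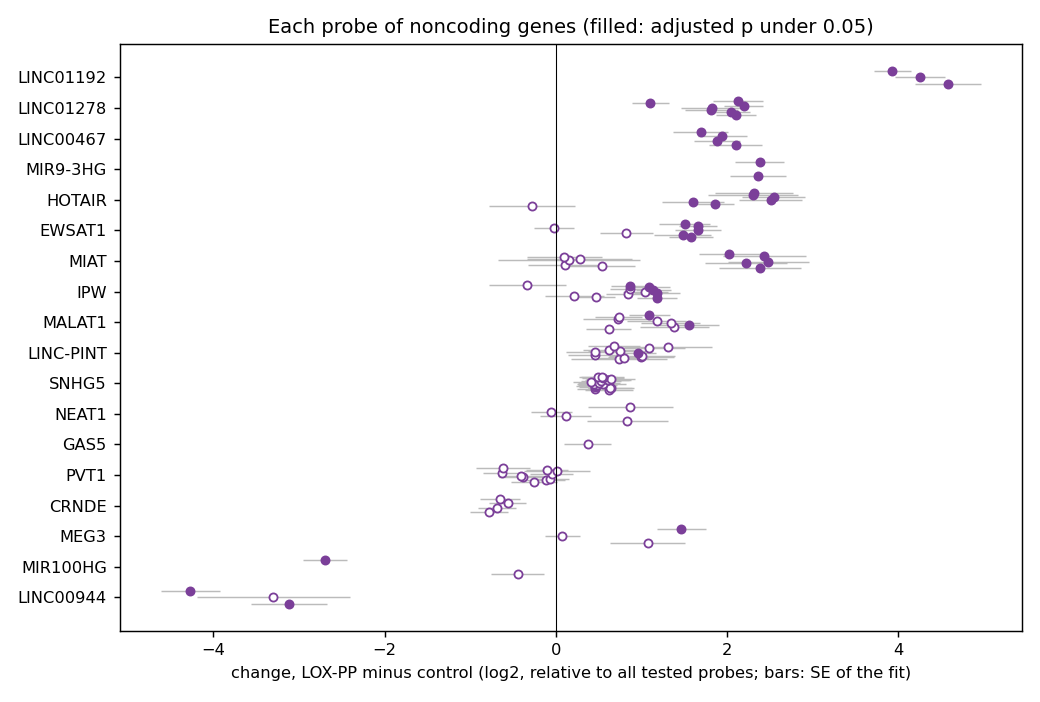
Change (log2, LOX-PP minus control, relative to all tested probes) of each member probe of 18 noncoding genes, with bars for the standard error of the fit; filled points passed an adjusted p of 0.05. All probes of LINC01192, LINC01278, LINC00467 and MIR9-3HG are filled and to the right of 0, those of MIAT form 1 set near 0 and another above 2, and the single filled points of MIR100HG and the pair of LINC00944 lie below −2.

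Imprinted noncoding RNAs, expressed from the chromosome of 1 parent, gave calls in 2 of their 8 member genes, MEG3 and IPW. Of 24 probes 21 were members. Of these 6 rose and none fell (28.6% called, beside 8.50% of NM probes at the same signals). The median change was 0.85 (0.00 for NM probes at the same signals), and 5 of the 21 had changes below 0, the lowest −0.64. With a common floor the median was 0.51, and with quantile normalization 0.54. None passed without control replicate 1 or 2 or without LOX-PP replicate 2 or 3. MEG3, transcribed from the maternal copy of the DLK1-DIO3 locus on chromosome 14, rose on its brightest probe from 1.79, 1.99 and 2.04 to 4.09, 3.22 and 3.28 (1.47 ± 0.29, adjusted p = 0.0274), while its other 2 probes gave changes of 0.07 and 1.07 (adjusted p = 0.623 and 0.177). IPW, of the Prader-Willi region on chromosome 15, rose on 5 of 11 probes by 0.86 to 1.18. One IPW probe read 0.24, −0.05 and 0.20 in the controls against 1.34, 1.49 and 1.34 (1.14 ± 0.20, adjusted p = 0.0187).

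The snoRNA members of both loci all had changes above 0. The SNORD113 and SNORD114 snoRNAs follow MEG3 on chromosome 14, and this family was picked after its values were seen. Of 38 probes 18 were members. Of these 14 rose (77.8%, beside 10.5% of NM probes at the same signals) and none fell. The median change was 2.57 with a range of 1.42 to 3.02 (median 0.12 for NM probes at the same signals). SNORD114-21, the brightest, read −2.04, −1.88 and −2.08 in the controls against 1.97, 0.82 and 0.14 (2.85 ± 0.45, adjusted p = 0.0151). SNORD114-5 had the largest change, from −4.64, −5.04 and −4.91 to −0.62, −2.14 and −2.41 (3.02 ± 0.47, adjusted p = 0.0146). LOX-PP replicate 1 was the highest array on 18 of the 18 probes. Without it 15 passed and the median change was 2.01 (0.95 to 2.43), but none passed without control replicate 1 or 2. The protein-coding genes at the ends of the locus did not pass, with changes of −0.27 and 0.86 for DLK1 and 1.40 for DIO3 (adjusted p = 0.143). In the chromosome 15 region 7 of 11 SNORD116 probes were members, with changes of 1.05 to 1.81, of which SNORD116-26 passed (1.25 ± 0.27, adjusted p = 0.0363). The share called was 14.3%, beside 9.90% of NM probes at the same signals. LOX-PP replicate 1 was the highest array on all 7, the median of 1.16 was 0.75 without it, and the call was lost without any one control array or LOX-PP replicate 2 (adjusted p up to 0.169). The 13 SNORD115 probes were above background on no array. SNRPN and SNURF, coding genes upstream, gave changes of −0.16 and 0.36 (adjusted p = 0.978 and 0.368). Probes of paralogous snoRNAs may share sequence, so the number of separate transcripts that changed is uncertain.

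**Figure D4:**
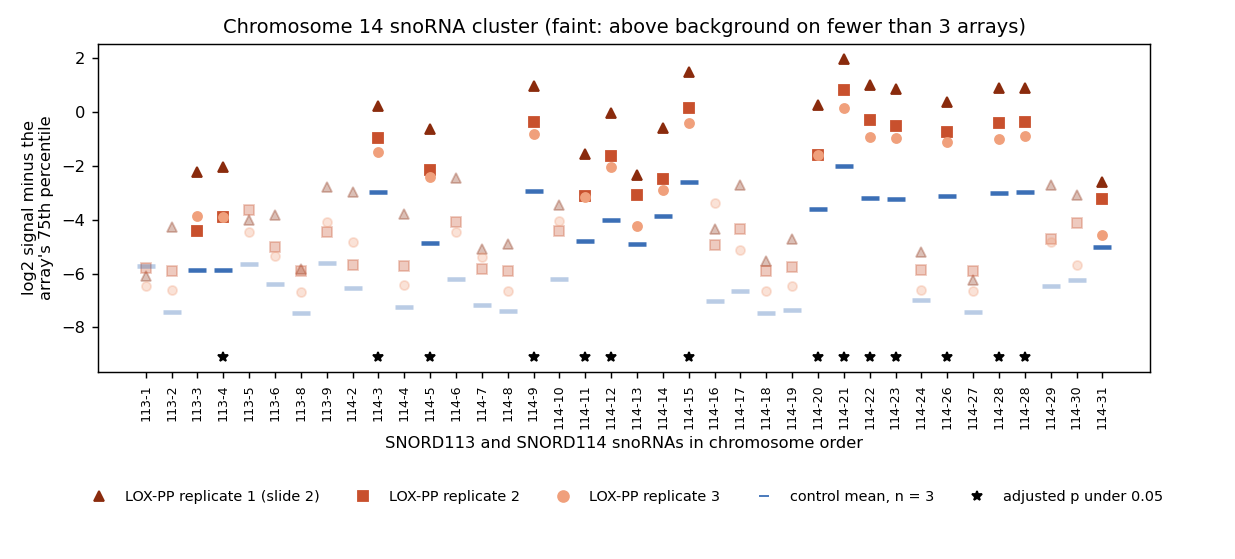
Log2 signal minus the array's 75th percentile for the 38 SNORD113 and SNORD114 probes in chromosome order, with the 3 LOX-PP arrays as separate points, the control mean (n = 3) as a blue bar and a star under each of the 14 probes past an adjusted p of 0.05; faint symbols mark probes above background on fewer than 3 arrays. On all 18 member probes the 3 LOX-PP arrays lie above the control mean, with replicate 1 (slide 2) the highest.

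Host genes of snoRNAs gave no call. Their introns hold the snoRNAs, and the spliced host RNA of several, such as GAS5, is short-lived in growing cells because translation leads to its decay. Of 63 probes 59 were members, from 22 genes, and they were bright, with a median mean signal of 3.57. The median change was 0.13 (−0.13 for NM probes at the same signals), the range −0.71 to 0.80 and the lowest adjusted p 0.147. Calls were rare at this brightness, with 3.55% of NM probes at the same signals called. The lack of a call among 59 probes therefore does not by itself set the hosts apart. limma and the methods' t-test both gave 0 calls, with unadjusted p-values below the threshold in 20 and 18 probes. SNHG5, with 18 probes at 0.41 to 0.64, made up 18 of those 20; its brightest probe read 5.51, 5.71 and 5.69 in the controls against 6.73, 5.98 and 6.46, so that the groups did not overlap. GAS5 gave a change of 0.37 (adjusted p = 0.344) and SNHG1 one of −0.30 (adjusted p = 0.731), and SNHG11 ran from −0.71 to 0.15 over 7 probes.

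Small structured RNAs passed mainly within the SNORD113 and SNORD114 cluster. Of 338 probes 292 were members, with 19 rises, no fall and a median change of 0.43 (0.07 without LOX-PP replicate 1). The share called was 6.51%, beside 8.67% of NM probes at the same signals. Outside the SNORD113, SNORD114 and SNORD116 families 267 members had a median change of 0.38 (−0.05 for NM probes at the same signals). Of these 4 rose: SNORD9 (2.89), SNORD8 (2.42), SCARNA11 (1.62) and SNORA15 (0.89). LOX-PP replicate 1 was the highest LOX-PP array on 214 of the 267 probes, and without it the median change was 0.01, with 5 calls. None passed without control replicate 1, control replicate 2 or LOX-PP replicate 2, and 12 did without LOX-PP replicate 3. The median signal of these probes was −1.09, −1.05 and −1.004 in the controls and 0.07, −0.60 and −1.24 in LOX-PP replicates 1 to 3, so that replicate 3 lay below the controls. SNORD8 read −1.27, −1.50 and −1.39 in the controls against 2.43, 0.49 and 0.58 (2.42 ± 0.52, adjusted p = 0.0381), and its host gene CHD8, which also holds SNORD9, gave a change of 0.47 (adjusted p = 0.306). For 234 snoRNA members that lie inside 147 tested host genes the median change was 0.36, against −0.04 for the hosts.

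The SNAR RNAs, short transcripts bound by NF90, are another family of near-identical genes chosen after its values were seen. All 8 members gave changes of 0.39 to 2.39, and 2 passed: SNAR-G1, from 0.34, 0.11 and 1.09 to 3.50, 2.99 and 2.60 (2.39 ± 0.35, adjusted p = 0.012), and SNAR-F (1.36 ± 0.32, adjusted p = 0.0455). Without control replicate 1 or 2 neither passed. The brightest, SNAR-A3, read 6.02, 6.26 and 6.52 against 7.74, 6.57 and 7.53 (0.89, adjusted p = 0.158).

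Transcribed pseudogenes, copies of protein-coding genes, formed the largest list with 560 members of 856 probes, from 401 genes. Of these 11 rose, 1 fell and the median change was 0.12 (0.02 for NM probes at the same signals). The share called was 2.14%, beside 8.10% of NM probes at the same signals. The keratin pseudogenes KRT42P and KRT16P2 on chromosome 17 changed most. KRT42P read −4.55, −5.06 and −4.15 in the controls against −0.28, 0.01 and 0.16 (4.42 ± 0.29, adjusted p = 0.000799), although a second probe gave a change of 0.63 (adjusted p = 0.17). KRT16P2 read −4.33, −4.77 and −3.50 against −0.72, 0.06 and 0.19 (3.91 ± 0.40, adjusted p = 0.00356). Epithelial keratin genes on the same chromosome gave changes of 5.13 ± 0.21 for KRT14 (adjusted p = 0.000142), 4.06 ± 0.25 for KRT17 (adjusted p = 0.000641) and 0.69 ± 0.83 for KRT16 (adjusted p = 0.619). Keratin genes and pseudogenes may share sequence, and how much of the signal of the pseudogene probes came from coding transcripts was not tested. TUBBP5, a tubulin pseudogene, rose by 2.38, DUSP5P1 by 2.08, HCG22 by 1.87 and ZNF815P by 1.74 on 1 of 2 probes, and TMEM191A fell by 1.28 (adjusted p = 0.0348). Against 12 calls with all arrays, 2 pseudogene probes passed without control replicate 1 and 3 without control replicate 2, KRT42P and KRT16P2 among them. FAM66A, FAM66C and FAM66D, near copies of one another, rose on 6 of 7 probes with changes of 0.88 to 1.57 over all 7, but none passed without control replicate 1 or 2.

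Accessions without a gene name held 232 members, of which 15 passed (6.47%, beside 8.35% of NM probes at the same signals). The largest change of all members was that of a probe of NR_024356, which was above background in none of the controls and in all 3 LOX-PP arrays (−2.04, −1.50 and −0.75), an at least 31.7-fold higher signal (adjusted p = 0.00352). It entered the test only through the LOX-PP arrays, so that p adds no support. A second NR_024356 probe read −0.88, −1.01 and −0.93 against −0.17, 0.00 and 0.44 (0.90 ± 0.24, adjusted p = 0.0548). Both were chosen after their values were seen.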

How the data were processed

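Total RNA of 3 control and 3 LOX-PP cultures, 1 array each, was hybridised in 1 colour (Cy3) to Agilent arrays designed on hg19, on 2 slides. The authors deposited scanner output of Agilent Feature Extraction 10.7, whose processed signal is a background-corrected intensity, and a table of log2 values that, set against the scanner files, proved to be the same signal scaled to each array's 75th percentile and centred per probe. The table served as an alternative only.

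Spots of a probe were averaged after removal of control and outlier spots. Log2 intensity minus the array's 75th percentile was tested with limma 3.58.1 in R 4.3.3 (lmFit, eBayes, no replicate block), over the 32647 probes flagged as above background in 3 or more of the 6 arrays, at an adjusted p of 0.05. The study's methods used Student's t-test, run here as an alternative called the methods' t-test. The test was tried on simulated data. Same-numbered arrays deviated with correlations of 0.27, −0.39 and 0.23. With 3 arrays per group, these cannot settle whether the numbers pair the samples. Summaries used Python 3.11.15.

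The members and lists were chosen with earlier results of these data known. Of members past the test with a gene name, the 10 largest rises and 10 largest falls were named, and of each of 12 lists up to 6 members past the test and the 4 brightest, with all probes of a named gene and the sense gene of an antisense transcript. The brightest sense probe was used for pairs, and each probe of a gene is otherwise reported alone. Names, gene types and sequences came from RefSeq tables of GRCh38.p14, matched by accession, so no coordinates of the arrays are given. The 3 experiments per group are called independent in the labels, and p-values measure the spread between them.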

Additional observations from a re-analysis of the deposited data

How the results depend on the processing

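Of 2499 members, 156 passed in the analysis reported. The count was 38 with the methods' t-test and 41 with no filter on dim probes. With the replicate number as a block it was 75 (67 higher, 8 lower), though whether the numbers pair the samples is not settled. It ranged from 28 to 189 when 1 array was left out (28 without control replicate 1, 33 without control replicate 2, 72 without LOX-PP replicate 2, 101 without control replicate 3, 108 without LOX-PP replicate 3, 189 without LOX-PP replicate 1). The other alternatives gave 133 to 189 calls: 141 with quantile normalization (104 higher, 37 lower), 155 with scaling to the median of probes above background, 155 with the authors' values, 133 with normexp (offset 50), 165 with a common floor, 140 with only probes above background on all 6 arrays and 189 with the slide as a block, which leaves LOX-PP replicate 1 without weight in the contrast. Normexp was run on the median spot signal, whereas the analysis reported used the processed signal, so this alternative changed the signal measure as well. The shared calls were 111 under quantile normalization and 32 under the t-test. The median change of the members kept its sign in every alternative, between 0.10 and 0.24. Of the named probes that passed none changed sign, while 14 of those that did not pass did so in at least 1 alternative. Of the 59 named probes that passed, 42 did not pass by the t-test, 36 without a filter, 21 with the replicate block, 11 with normexp, 6 with quantile normalization, 40 without control replicate 1 and 40 without control replicate 2. In all, 18 called probes passed in each alternative in which they were tested, but only 9 of them were tested in all. Among the 9 were 1 probe each of ZNF667-AS1, ZNF790-AS1, MIR100HG and HOTAIR. The rest were not above background on all 6 arrays, so the alternative limited to such probes left them out. They included the other ZNF667-AS1 probe, the 3 of LINC01192, and KRT42P and LINC00944 with 1 each. The cause of the differences between alternatives was not tested. Dim probes limit what can be read: 716 members were above background on 3 to 5 arrays, where values below the floor have no order.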

Other observations

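By chromosome, noncoding members and NM probes had different medians in places. On chromosome 13 the 43 members had a median change of −0.14 and 1 fell (DLEU1), while the 344 NM probes had −0.83. On chromosome 8 the 68 members had −0.01, with 5 rises and 1 fall, and the 652 NM probes −0.43. Chromosomes 14 and 15, which hold the imprinted snoRNA clusters, had medians of 0.49 and 0.38 over their noncoding members and −0.12 on both for NM probes. On chromosome 19 the 96 members had 13 rises in 11 genes and no fall, with a median of 0.27, beside 0.12 for the 1425 NM probes. Over all chromosomes the 2499 members had 137 rises and 19 falls.

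A few RNAs of the basic machinery of the cell were bright without passing the test. The RNA component of signal recognition particle, RN7SL1, gave a change of 0.67 (adjusted p = 0.345), RN7SK, which holds back transcription elongation, 0.67 (adjusted p = 0.189), RMRP 1.02 (adjusted p = 0.186), RPPH1 0.52 (adjusted p = 0.512) and the telomerase RNA TERC 0.24 (adjusted p = 0.459). On RN7SL1, RMRP, RPPH1 and RN7SK, LOX-PP replicate 1 was the highest of all arrays.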
